A study of Mus musculus with 6 samples.

Results

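The genes described are those of the matrix metalloproteinases (MMP), their tissue inhibitors (TIMP), the membrane-anchored disintegrin metalloproteases (ADAM), the secreted ADAMTS proteases and the ADAMTS-like proteins (ADAMTSL). They were chosen by name, as every gene symbol on the array that begins with one of these family names followed by a digit, and they number 79 of the 30854 gene names and 147 of the 45281 probes. PA6 cells, a mouse stromal line used as a feeder that turns embryonic stem cells towards neural fates, were grown alone to confluence and then kept for 3 h in serum-free medium. The medium held no growth factors (-GFs), recombinant FGF2 at 20 ng/ml or recombinant BMP4 at 10 ng/ml. Each biological replicate consisted of 1 well per treatment, and there were 2 replicates per group, each measured on 1 Illumina MouseWG-6 v2.0 array, so 6 arrays in all. PA6 is an established line, so the replicates are repeat cultures of the same cells.

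MMPs, ADAMs and ADAMTS proteases share a zinc-dependent catalytic fold. Secreted and membrane-type MMPs and ADAMTS proteases cut collagens, proteoglycans and other matrix proteins, whereas ADAMs release growth factors, cytokines and receptors from the cell surface. TIMPs bind the active site and block it, and ADAMTSL proteins keep the accessory modules of the ADAMTS family but lack the protease domain. In connective tissue stroma, genes such as those of TIMP1 and of the stromelysins and collagenases are known targets of growth factor signalling through AP-1 and ETS transcription factors.

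The values are log2 intensities after cubic spline normalization, and a gene was tested if some group had the same probe detected on both its arrays, at a detection p under 0.05. Median intensity per array before normalization was between 153.4 and 168.1, and between 15509 and 16459 probes per array were detected. A gene with several detected probes is represented by the probe with the largest mean. A gene is named called where limma's adjusted p was under 0.1 and the log2 fold change exceeded 1 in size, and past the adjusted p where only the first condition is required.

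Of the 79 genes, 34 passed the detection filter (43%), against 11872 of all 30854 names on the array (38.5%). By family, 4 of 4 TIMP genes, 9 of 23 MMP genes, 9 of 29 ADAM genes, 8 of 18 ADAMTS genes and 4 of 5 ADAMTSL genes passed. Of the 45 that did not pass, 37 had no probe detected on any array. The MMP genes with no detected probe, named here after their values were seen, include those of the collagenase MMP8, the matrilysin MMP7, the stromelysin MMP10 and the macrophage elastase MMP12. Among the ADAM genes with no detected probe are ADAM2, ADAM3 and ADAM18, known from sperm and testis, and also ADAM10, a widely expressed sheddase. The collagenase gene MMP13 was detected on 2 arrays and ADAM24 on 1, but neither passed. A probe that is not detected gives no level, so the genes that did not pass were not measured rather than shown to be off.

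**Figure D1:**
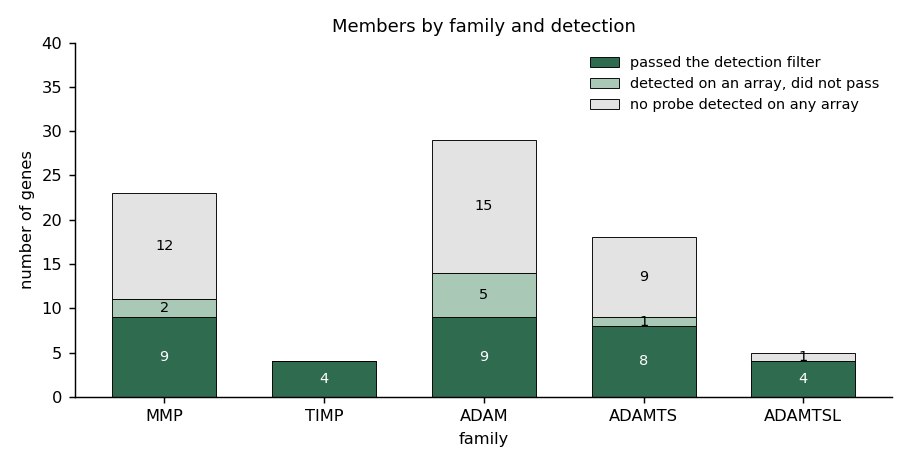
Number of genes (y axis) in each family (x axis), split into genes that passed the detection filter, genes detected on an array that did not pass it, and genes with no probe detected on any array. All 4 TIMP genes passed, against 9 of 23 MMP genes and 9 of 29 ADAM genes.

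The bar plot of detection gives these counts by family, and its lightest segments are the 37 genes without any detected probe. The 5 detected members with the highest mean log2 intensity over the 6 arrays were MMP2 (gelatinase A), TIMP3, TIMP2, ADAMTS2 (the procollagen N-proteinase) and TIMP1. They are named as a description only, because brightness differs from probe to probe and does not order transcripts. MMP2 measured 15.25 and 15.25 in -GFs, 14.89 and 14.76 with FGF2, and 15.12 and 15.46 with BMP4. ADAMTS2 measured 14.29 and 14.67 in -GFs, 14.20 and 14.48 with FGF2, and 14.30 and 14.58 with BMP4. The FGF2 arrays lay below both -GFs arrays for MMP2 and between or below them for ADAMTS2.

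Addition of FGF2 for 3 h raised the transcript of the inhibitor TIMP1 and, past the adjusted p but without a call, that of TIMP3. The stromelysin MMP3 was also past the adjusted p, but it passed the detection filter through its FGF2 arrays alone and only a lower bound can be given. FGF2 lowered the transcripts of the stromelysin-3 gene MMP11, of the membrane-type protease MMP24 and of the matrix protein ADAMTSL4, all by less than the fold threshold. The comparison of FGF2 with -GFs asks how the stromal cells themselves respond within hours to a factor that, added to co-cultures with embryonic stem cells, lets endothelial cells arise beside neurons. Over the 34 detected members, 16 were higher and 18 lower with FGF2 (13 and 21 with median scaling), with a median log2 fold change of -0.06 against -0.02 over all genes tested. The members' median was also -0.02 when those undetected in a group were set at their bound. With median scaling the members' median was -0.11, against -0.10 over all genes tested. MMP3 and ADAM22 passed the detection filter through FGF2 alone, and without them 14 were higher and 18 lower, with a median of -0.10. The 18 include TIMP4, which passed through -GFs alone, and ADAM11 and ADAMTSL1, which passed through -GFs and BMP4 but not FGF2. The 14 include MMP28, which passed through FGF2 and BMP4 but not -GFs.

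Of the 34 members, 1 was called higher, against 2.28% of all genes tested, and 0 were called lower, against 1.25%. Past the adjusted p were 3 higher, against 6.03% of all genes, and 3 lower, against 5.78%. At an unadjusted limma p under 0.05 there were 5 higher and 5 lower, against 23.3% of all genes in either direction, and the methods' t-test, unadjusted, gave 6 members in all, against 15% of all genes. Both FGF2 arrays lay above both -GFs arrays for 8 members and below for 12, where 24.6% and 29.1% of all genes tested did so. The 8 include MMP3, which passed the detection filter through FGF2 alone, and MMP28, which passed through FGF2 and BMP4 but not -GFs. The 12 include TIMP4, which passed through -GFs alone, and ADAM11 and ADAMTSL1, which passed through -GFs and BMP4 but not FGF2. These counts lie close to the shares over all genes and are no result about the families as such. With the replicate number as a block, 1 member was called higher (2.51% of all genes) and 1 lower (1.44%), the latter being ADAMTSL1, and 7 members were past the adjusted p in the higher direction (18.1%) and 7 in the lower (19.6%).

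Among the inhibitors, TIMP1, which blocks most MMPs and is secreted, measured 13.73 and 13.75 in -GFs, 15 and 15.33 with FGF2, and 13.67 and 13.84 with BMP4. Both FGF2 arrays stood more than 1 log2 unit above the other 4 arrays, which lay close together. The log2 fold change with FGF2 was 1.42 (SE 0.17), a 2.67-fold rise, with an adjusted p of 0.00986. Without the second FGF2 array the log2 fold change was 1.26 and the adjusted p 0.103, so the call ended. A group left with 1 array takes its spread from the other groups, so a call that ends in this way, here and below, also reflects fewer arrays.

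TIMP3, which binds to the matrix and inhibits ADAM17 and ADAMTS proteases as well as MMPs, measured 14.71 and 14.09 in -GFs, 15.38 and 15.39 with FGF2, and 14.85 and 14.40 with BMP4. The FGF2 arrays coincided and lay above the other 4, whose replicates were further apart. The log2 fold change was 0.99 (SE 0.25), with an adjusted p of 0.068. That p was 0.114 with neqc background correction and 0.101 with median scaling. It was 0.21 without the second -GFs array, 0.261 without the first FGF2 array and 0.311 without the second, whereas without the first -GFs array the gene was called, at 1.30 (adjusted p = 0.069).

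TIMP2, which together with MMP14 activates pro-MMP2 at the cell surface, measured 14.74 and 14.62 in -GFs, 14.78 and 14.80 with FGF2, and 15.15 and 14.50 with BMP4. Both FGF2 values lay above the -GFs values and within the range of the BMP4 arrays, and the log2 fold change of 0.10 (adjusted p = 0.823) became -0.07 with median scaling. TIMP4 was near the detection limit, with 7.64 and 8.03 in -GFs, 7.41 and 7.59 with FGF2, and 7.50 and 8.48 with BMP4. It was undetected on both FGF2 arrays and on 1 BMP4 array, so that -GFs was at least 1.19-fold above FGF2 (adjusted p = 0.588). Because only -GFs took it through the detection filter, this difference is no independent support.

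Among the secreted MMPs, MMP3, stromelysin-1, which cuts proteoglycans and activates other pro-MMPs, measured 7.68 and 7.82 with FGF2, where it was detected on both arrays. It measured 7.07 and 6.97 in -GFs and 7.27 and 6.99 with BMP4 and was undetected on those 4 arrays. FGF2 was therefore at least 1.12-fold above either group, with an adjusted p of 0.0509 against -GFs. Since only its FGF2 arrays passed it through the detection filter, this p is no independent support; with no detection filter it was 0.0378. This p was 0.126 without the first -GFs array, 0.172 without the second, 0.191 without the first FGF2 array and 0.289 without the second. With neqc the gene was called.

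MMP11, stromelysin-3, a protease of stromal fibroblasts that is activated inside the cell, measured 9.69 and 9.74 in -GFs, 8.63 and 8.84 with FGF2, and 10.06 and 10.33 with BMP4. The 3 groups did not overlap, with FGF2 lowest and BMP4 highest. With FGF2 it fell by 0.98 on the log2 scale (SE 0.17, adjusted p = 0.0235), just short of the fold threshold. It was called with neqc (-1.27), with median scaling (-1.08) and without the first -GFs array (-1.01). The adjusted p was 0.166 without the first FGF2 array and 0.147 without the second.

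MMP2 stood at a log2 fold change of -0.42 with FGF2 (adjusted p = 0.19, and 0.0388 with the replicate block). The remaining detected secreted MMPs were MMP1A, MMP9 and MMP28. MMP28, epilysin, measured 7.32 and 7.65 in -GFs against 7.82 and 8.21 with FGF2, with an adjusted p of 0.161, and 0.00982 with the replicate block. It was undetected on the first -GFs array and passed the detection filter through FGF2 and BMP4 but not -GFs. Its p-values are therefore no independent support, and its log2 fold change of 0.53 became 1.22 with neqc. Without the second -GFs array another probe had the largest mean and gave -0.07, whereas the probe used here gave 0.70. MMP9, gelatinase B, showed the smallest change of the family, -0.04, and its FGF2 arrays overlapped those of -GFs.

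Of the membrane-type MMPs, MMP24 measured 11.33 and 11.09 in -GFs, 10.60 and 10.42 with FGF2, and 10.97 and 11.04 with BMP4. Both FGF2 arrays lay below the other 4. With FGF2 it fell by 0.70 on the log2 scale (SE 0.16, adjusted p = 0.0545), and the mean of its 3 detected probes gave -0.22 (adjusted p = 0.382). The adjusted p was 0.105 with neqc, 0.167 without the first -GFs array, 0.188 without the first FGF2 array and 0.31 without the second. MMP14, the main membrane-type collagenase and an activator of pro-MMP2, measured 14.02 and 14.22 in -GFs against 14.07 and 14.39 with FGF2. Its groups overlapped, and the log2 fold change of 0.11 became -0.08 with median scaling and -0.05 without the second FGF2 array.

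**Figure D2:**
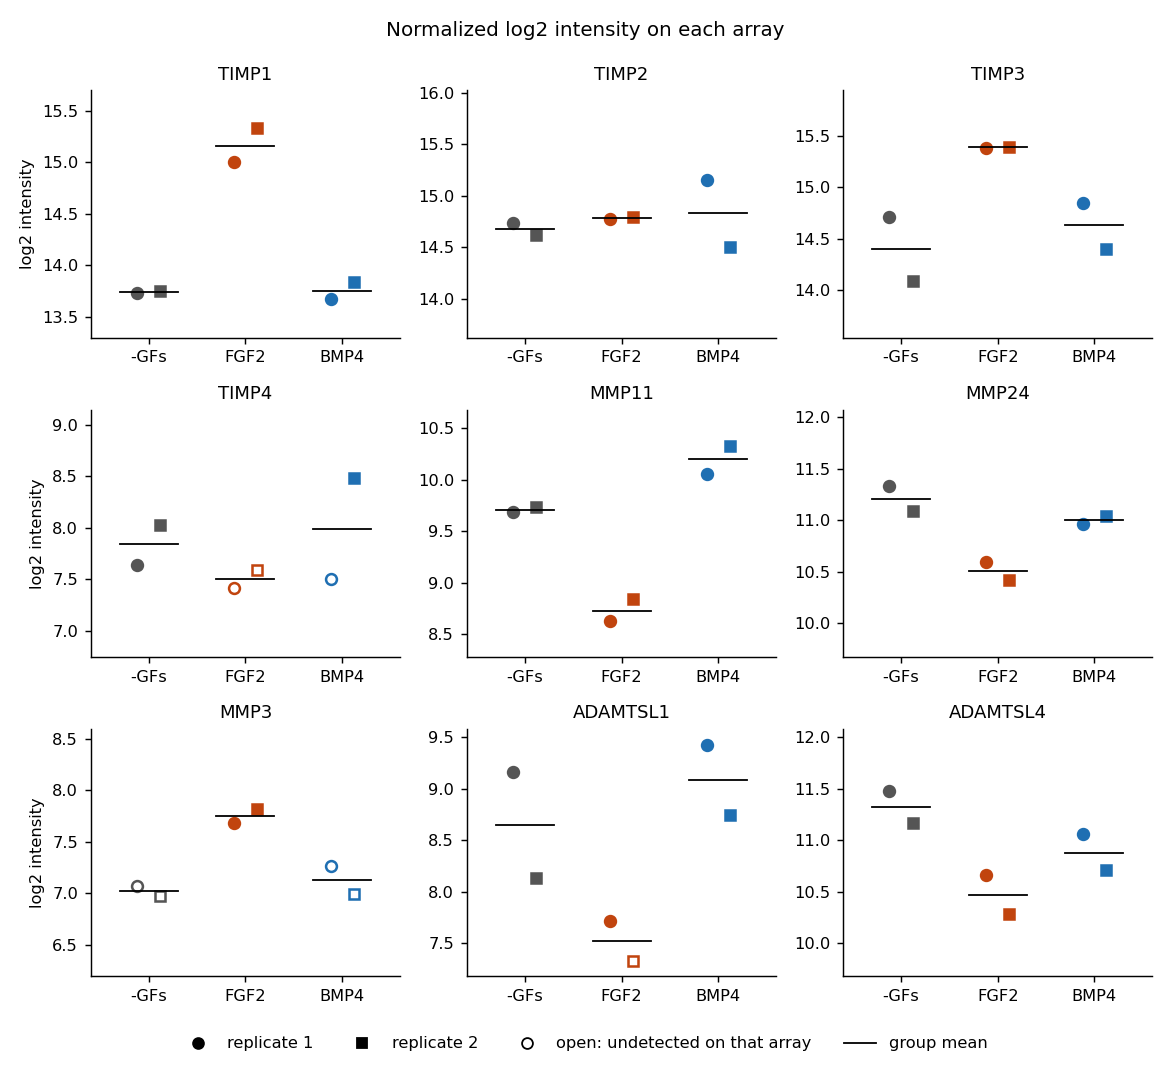
Normalized log2 intensity (y axis, 2.4 units tall in every panel) on each of the 6 arrays, by group (x axis), for the detected TIMP genes and the members past the adjusted p with FGF2 or called between FGF2 and BMP4. Circles and squares are replicates 1 and 2, open symbols are undetected, and bars are group means; TIMP1 stood at 15 and 15.33 with FGF2 against at most 13.84 on the other arrays, and MMP11 at 8.63 and 8.84 against at least 9.69.

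The plot of single arrays shows the same replicate order in many members, for instance lower second arrays in all 3 groups for ADAMTSL1 and ADAMTSL4. Its open symbols mark single undetected arrays, and where both arrays of a group are open, as for MMP3 outside FGF2, only a bound can be given.

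Promoter sequences are shown for the 6 members past the adjusted p with FGF2. They are from RefSeq, build GRCm38.p6, 250 bases before to 50 after a transcript start of the gene, read 5′ to 3′ on the strand of the gene. Capitals mark matches, on either strand, of the motifs AP-1 (TGANTCA), PEA3/ETS (AGGAAG), the SMAD element of BMP targets (GGCGCC) and CRE (TGACGTCA).
Timp1, chrX:20869916-20870215, plus strand: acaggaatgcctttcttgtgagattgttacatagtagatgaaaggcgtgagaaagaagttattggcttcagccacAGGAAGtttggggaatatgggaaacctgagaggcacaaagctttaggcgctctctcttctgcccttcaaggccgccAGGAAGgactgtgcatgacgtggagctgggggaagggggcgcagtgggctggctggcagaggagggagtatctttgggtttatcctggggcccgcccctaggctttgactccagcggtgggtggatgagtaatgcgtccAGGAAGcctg
Timp3, chr10:86300162-86300461, plus strand: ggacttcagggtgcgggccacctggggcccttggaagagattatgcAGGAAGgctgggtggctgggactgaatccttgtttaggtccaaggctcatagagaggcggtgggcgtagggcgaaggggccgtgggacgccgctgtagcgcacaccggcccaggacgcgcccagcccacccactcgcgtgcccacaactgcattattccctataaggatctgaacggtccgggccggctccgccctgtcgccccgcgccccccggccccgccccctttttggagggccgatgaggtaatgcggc
Mmp3, chr9:7445572-7445871, plus strand: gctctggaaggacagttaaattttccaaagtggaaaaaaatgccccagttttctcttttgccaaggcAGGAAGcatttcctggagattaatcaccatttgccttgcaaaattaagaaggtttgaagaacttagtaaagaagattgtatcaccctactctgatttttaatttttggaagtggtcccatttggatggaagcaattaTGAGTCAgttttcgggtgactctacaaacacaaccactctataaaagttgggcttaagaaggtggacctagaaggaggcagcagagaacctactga
Mmp11, chr10:75932453-75932752, minus strand: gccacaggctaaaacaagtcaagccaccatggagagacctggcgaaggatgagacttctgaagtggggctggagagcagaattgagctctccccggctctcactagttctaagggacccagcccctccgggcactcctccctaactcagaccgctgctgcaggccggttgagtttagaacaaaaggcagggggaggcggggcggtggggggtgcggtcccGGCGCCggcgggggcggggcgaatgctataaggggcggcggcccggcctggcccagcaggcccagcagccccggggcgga
Mmp24, chr2:155775092-155775391, plus strand: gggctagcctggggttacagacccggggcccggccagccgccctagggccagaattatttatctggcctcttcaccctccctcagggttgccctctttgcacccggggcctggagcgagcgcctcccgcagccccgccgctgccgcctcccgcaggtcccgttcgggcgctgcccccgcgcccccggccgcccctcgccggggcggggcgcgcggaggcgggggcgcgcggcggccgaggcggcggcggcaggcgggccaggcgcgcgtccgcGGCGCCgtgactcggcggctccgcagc
Adamtsl4, chr3:95687868-95688167, minus strand: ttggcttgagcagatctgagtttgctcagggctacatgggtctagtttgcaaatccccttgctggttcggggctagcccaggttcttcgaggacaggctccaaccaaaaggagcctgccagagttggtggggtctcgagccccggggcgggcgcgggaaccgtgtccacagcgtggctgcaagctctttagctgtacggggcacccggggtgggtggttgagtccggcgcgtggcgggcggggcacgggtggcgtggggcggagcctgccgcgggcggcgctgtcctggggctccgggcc
The Timp1 window holds the PEA3/ETS letters 3 times, at -175, at -99 and at 41, counted from that start. The Timp3 window holds them at -204, and the Mmp3 window at -183 beside the AP-1 letters at -46 to -40. The Mmp11 window holds the SMAD letters at -30 and the Mmp24 window at 24, both without the other motifs, and the Adamtsl4 window holds none of the 4. These letters occur in 35.4% of all 32851 promoters of the table for PEA3/ETS, in 7.81% for AP-1, in 11.9% for the SMAD element and in 1.79% for CRE, so a match is a description and not a site.

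A promoter was available for 49 of the 79 members, as 52 windows. Of these windows 11 held the AP-1 letters (21.2%), 21 those of PEA3/ETS (40.4%), 10 the SMAD letters (19.2%) and 0 those of CRE. The AP-1 letters were found in 9 of the 31 windows of members that did not pass the detection filter and in 2 of the 21 windows of members that did, whereas the SMAD letters were found in 3 of the former and 7 of the latter. Much of the AP-1 count came from 1 locus on mouse chromosome 9, where 10 MMP genes (MMP13, MMP12, MMP1B, MMP3, MMP1A, MMP10, MMP8, MMP27, MMP20 and MMP7) neighbour each other with gaps under 500 kb. In that locus 8 of the 10 genes had the AP-1 letters, and only MMP3 and MMP1A of the 10 passed the detection filter. MMP1A, an interstitial collagenase, overlapped between -GFs and FGF2, with a log2 fold change of 0.30 (adjusted p = 0.434).

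Among the ADAM genes none of the 9 detected members was past the adjusted p with FGF2, and 5 were higher and 4 lower (4 and 5 with median scaling). ADAM11, which lacks the catalytic zinc site, measured 7.70 and 8.20 in -GFs and 7.44 and 7.56 with FGF2. It was undetected on both FGF2 arrays, so -GFs was at least 1.29-fold above FGF2 (adjusted p = 0.222, and 0.0282 with the replicate block). Since ADAM11 passed the detection filter through -GFs and BMP4 but not FGF2, neither p is independent support. ADAM12, meltrin alpha, a protease of mesenchymal precursors, measured 8.20 and 8.75 in -GFs against 8.67 and 9.17 with FGF2, with an adjusted p of 0.417, and 0.0197 with the replicate block. Its log2 fold change of 0.45 was 0.17 without the first -GFs array and 0.72 without the second. ADAM9, a widely expressed sheddase, showed the smallest change, 0.01, with a wide spread between replicates: 11.04 and 10.15 in -GFs and 10.79 and 10.43 with FGF2. Its sign changed with median scaling (-0.07), and the change ran from -0.43 to 0.46 when an array was left out. ADAM17, the TNF converting enzyme, also overlapped between the groups, with a log2 fold change of 0.13 (adjusted p = 0.803).

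Among the ADAMTS proteases none of the 8 detected members was past the adjusted p. ADAMTS4, an aggrecanase that also cuts versican, had the largest change, with 8.64 and 9.33 in -GFs, 9.55 and 9.89 with FGF2, and 8.67 and 9.01 with BMP4. Both FGF2 arrays lay above the other 4. The log2 fold change was 0.74 (SE 0.27), with an adjusted p of 0.156, and 8.81e-04 with the replicate block. Leaving out the first -GFs array gave 0.40 (adjusted p = 0.39), whereas without the second it was called, at 1.08 (adjusted p = 0.0936). ADAMTS1, another versican-cutting protease, stood at -0.32 (adjusted p = 0.285, and 0.0861 with the replicate block). The smallest changes were those of ADAMTS9, 0.11, and ADAMTS10, -0.11, and in all 6 of 8 members were lower with FGF2 and 2 higher under each of the 4 scalings.

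In the ADAMTS-like family the largest fitted change was that of ADAMTSL1, punctin, a secreted matrix protein. It measured 9.16 and 8.13 in -GFs, 7.72 and 7.33 with FGF2, and 9.43 and 8.75 with BMP4. The FGF2 arrays lay below the other 4, but the second of them was undetected, so its value is not above background, and the -GFs replicates differed by about 1 log2 unit. The log2 fold change was -1.12 (SE 0.38) and the adjusted p 0.132, so it was not called, whereas with the replicate block the adjusted p was 3.38e-05 and it was. ADAMTSL1 passed the detection filter through -GFs and BMP4 but not FGF2, so neither p is independent support. It was also called without the second -GFs array, at -1.65 (adjusted p = 0.0701), but stood at -0.59 without the first (adjusted p = 0.341) and at -0.94 without the undetected FGF2 array (adjusted p = 0.459), and neqc moved the change to -2.15 (adjusted p = 0.108).

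ADAMTSL4, which binds fibrillin microfibrils, measured 11.48 and 11.17 in -GFs, 10.66 and 10.28 with FGF2, and 11.06 and 10.71 with BMP4. FGF2 was lowest on both arrays, with the BMP4 arrays between the other groups. With FGF2 it fell by 0.85 on the log2 scale (SE 0.21, adjusted p = 0.0673), and the adjusted p was 0.111 with neqc. It was 0.195 without the first -GFs array, 0.115 without the second, 0.168 without the first FGF2 array and 0.348 without the second. ADAMTSL5 stood at 0.47 (adjusted p = 0.25, and 0.0285 with the replicate block), or 0.23 without the first -GFs array, and ADAMTSL3 had the smallest change, -0.09.

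**Figure D3:**
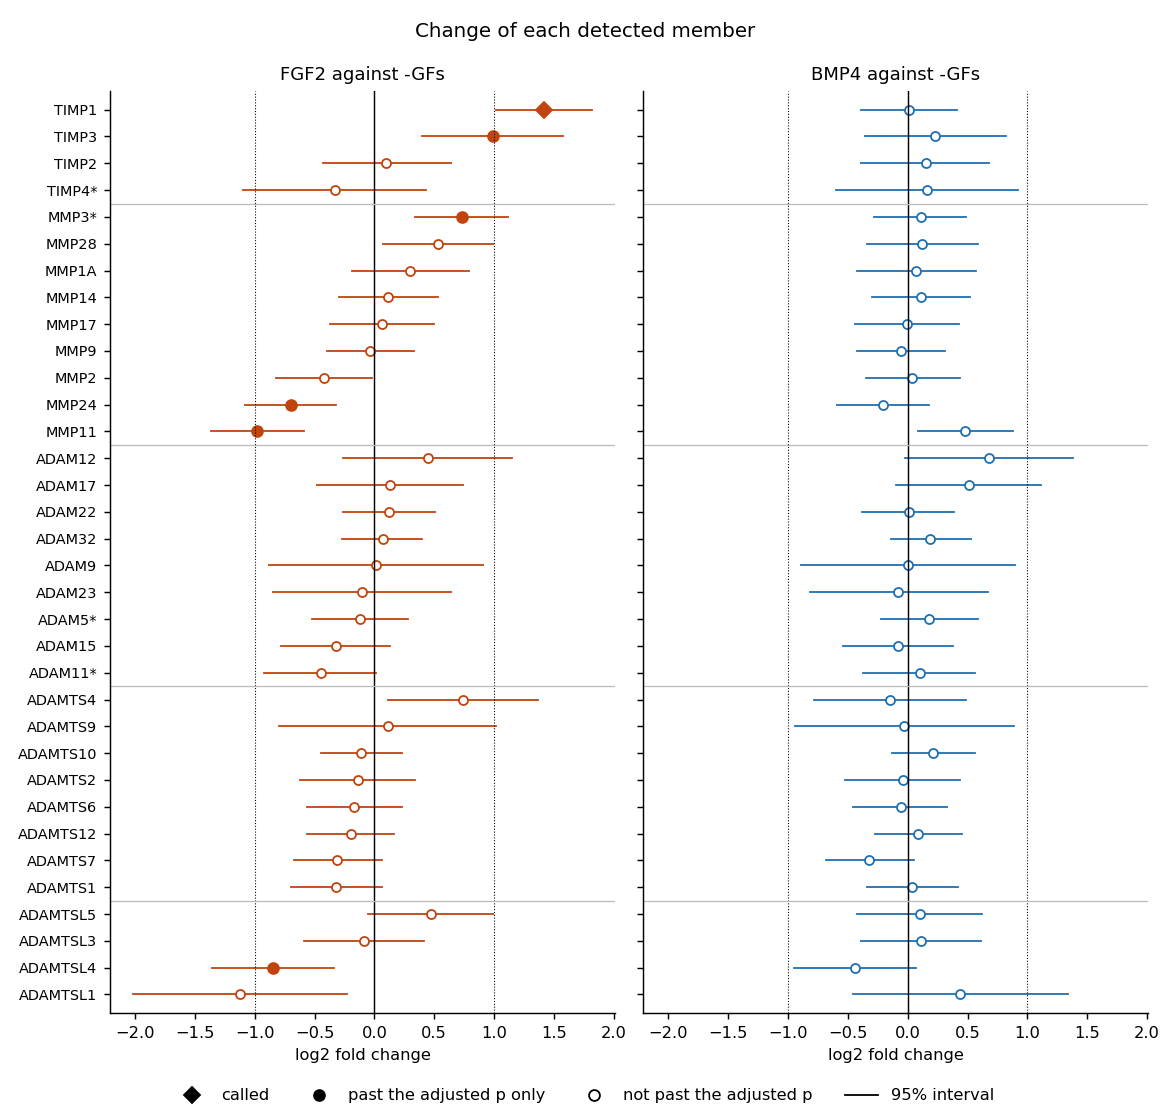
Log2 fold change (x axis) of the 34 detected members (y axis, ordered by family and by the change with FGF2), for FGF2 against -GFs and BMP4 against -GFs, with 95% intervals from limma. Diamonds are called, filled circles past the adjusted p only, and an asterisk marks members undetected on both arrays of a group, whose fitted change is no bound; TIMP1 at 1.42 is the only diamond, and no member is filled with BMP4.

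The plot of changes gives all 34 members with their intervals. With FGF2 the filled symbols are the 6 members named above, and ADAMTSL1 has an interval from -2.02 to -0.23, among the widest beside those of ADAMTS9 and ADAM9.

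With BMP4 for 3 h no member was past the adjusted p. Of the 34 members 0 were called, against 0.00842% of all genes tested, and 0 were past the adjusted p, against 0.00842%. At an unadjusted limma p under 0.05 there was 1, MMP11, where 1.81% of all genes were. The methods' t-test on the same arrays, unadjusted, also gave 1, ADAM32, against 3.64% of all genes. Both BMP4 arrays lay above both -GFs arrays for 5 members and below for 3, where 11.2% and 12.8% of all genes did so. Among the 5, ADAM5 and ADAMTS10 passed the detection filter through BMP4 alone, so their place there is no independent support. The log2 fold changes ran from -0.44 to 0.68, with a median of 0.08.

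MMP11 had a log2 fold change of 0.48 with BMP4 (SE 0.17, adjusted p = 0.999), its values of 10.06 and 10.33 lying above those of 9.69 and 9.74 in -GFs. ADAM12 had the largest change, 0.68 (SE 0.30, adjusted p = 0.999), with 8.84 and 9.46 against 8.20 and 8.75. The change was 0.37 without the second BMP4 array and 0.40 without the first -GFs array. With the replicate block its adjusted p was 0.0594, and it was the only member past the adjusted p in that fit, against 0.219% of all genes. ADAMTSL4 stood lowest, at -0.44. The 4 TIMP genes had changes from 0.01 to 0.23, with TIMP1 at 0.01 (-0.10 with median scaling). ADAM5, known from male germ cells, was undetected on both -GFs arrays and measured 7.70 and 7.82 with BMP4, at least 1.12-fold above -GFs, but it passed the detection filter through those BMP4 arrays alone.

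With the BMP4 arrays as the reference for FGF2, 3 members were called. TIMP1 was called higher with FGF2, 1 member against 2.03% of all genes, and MMP11 and ADAMTSL1 were called lower, 2 members against 1.04%. ADAMTSL1 passed the detection filter through -GFs and BMP4 but not FGF2, so its p is no independent support. For TIMP1 the log2 fold change was 1.41 (SE 0.17, adjusted p = 0.0106), and the adjusted p was 0.108 without the second FGF2 array. For MMP11 it was -1.46 (SE 0.17, adjusted p = 0.00886), and this call held when any array was left out. For ADAMTSL1, undetected on the second FGF2 array, it was -1.56 (SE 0.38, adjusted p = 0.0698), and the call ended with median scaling (adjusted p = 0.106), without either FGF2 array (0.225 and 0.355) and without either BMP4 array (0.234 and 0.112), and neqc gave -2.82. All 3 calls also held with the replicate block. The comparison shares both of its groups with the comparisons above and is no independent evidence of them.

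For 41 members the array holds 1 probe and for 38 more than 1, and 10 members had more than 1 detected probe. In 5 of the 10 the detected probes gave changes of both signs with FGF2. The 5 include ADAM23, whose probe at 0.42 passed the filter through the FGF2 arrays alone and is no check on the other. The other TIMP1 probe changed by 1.29 against 1.42 for the chosen one, while the detected MMP3 probes passed the filter through the FGF2 arrays alone and are no check on each other. The 3 TIMP3 probes differed by more than 1 log2 unit. The probe that stands for the gene gave 0.99 and another gave 1.13, with 9.73 and 9.58 in -GFs and 10.74 and 10.82 with FGF2, whereas the probe with 7.86 and 7.78 in -GFs measured 7.59 and 7.99 with FGF2. For MMP24 the changes ran from -0.70 at the chosen probe to 0.23.

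**Figure D4:**
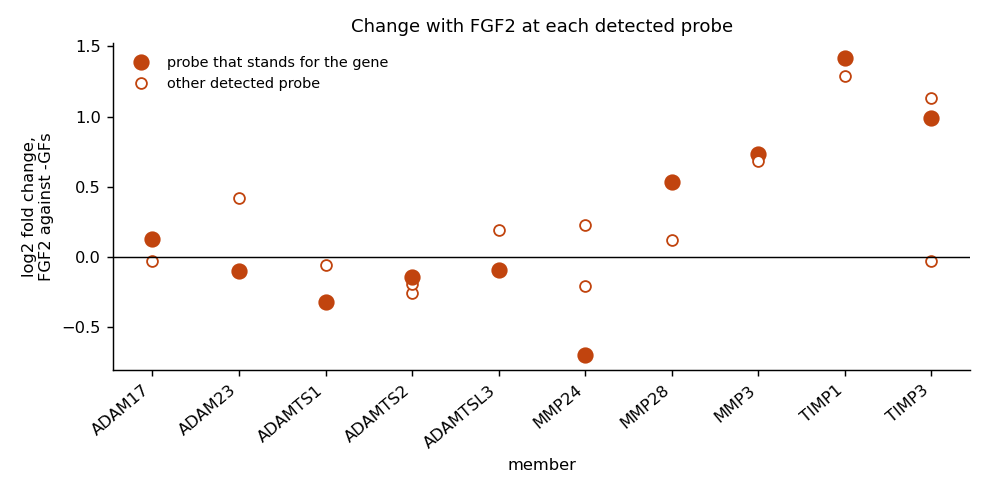
Log2 fold change with FGF2 (y axis) at each detected probe of the 10 members (x axis) with more than 1. Filled circles are the probes that stand for the gene and open circles the others; both TIMP1 probes lie above 1, whereas the TIMP3 probes run from -0.03 to 1.13 and the MMP24 probes from -0.70 to 0.23.

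The plot of probes shows which members rest on concordant probes, such as TIMP1, and which do not, such as MMP24 and TIMP3. The TIMP3 probe at -0.03 (7.27 to 7.99 over the arrays) and the MMP24 probe at 0.23 (7.56 to 7.98) lay near the detection limit.

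Genes around these families were followed in 5 lists; over all genes tested, 5642 of 11872 were higher with FGF2, 2.28% were called higher and 1.25% lower. Of the inhibitors, activators and partners of the metalloproteases 15 of 20 were tested. Of these 8 were higher and 7 lower with FGF2 (7 higher with median scaling), with a median of 0.00. PCSK5 and FRMD8 passed the detection filter through FGF2 alone. Without them 5 were higher and 7 lower, with TSPAN5 at 0.00 and a median of -0.09. In this list 2 were called, both higher. These were CD44, a hyaluronan receptor that docks MMPs, which rose from 11.70 and 12 to 12.98 and 13.34 (log2 fold change 1.31, adjusted p = 0.0162). The other was the tetraspanin CD9, a partner of ADAM proteases, which rose from 10.93 and 10.67 to 12 and 12.19 (1.30, adjusted p = 0.0147). Both calls ended without the second FGF2 array (adjusted p = 0.148 for CD44 and 0.149 for CD9). RHBDF1 (0.68, adjusted p = 0.058) and TSPAN17 (-0.66, adjusted p = 0.0562) were past the adjusted p only, and no longer so when any of the 4 -GFs and FGF2 arrays was left out (up to 0.315 and 0.313). That also ended for RHBDF1 with neqc and with median scaling, and for TSPAN17 with the mean of its detected probes.

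Of the metzincins and relatives outside the naming rule 6 of 14 were tested, 2 higher and 4 lower, with a median of -0.04. PAPPA, which cuts IGF binding proteins, was called, from 10.08 and 9.99 to 10.94 and 11.13 (adjusted p = 0.0284). Its log2 fold change rounds to the threshold of 1, and the call ended with median scaling (0.92), without the second -GFs array (0.96) and without either FGF2 array (adjusted p = 0.142 and 0.22). It had the largest change of this list and PCOLCE, a protein that enhances procollagen processing, the next largest, -0.24 (adjusted p = 0.418).

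Of the proteins shed by ADAM10 or ADAM17, 18 of 26 were tested, 15 higher and 3 lower with FGF2 (13 higher with median scaling), with a median of 0.27. HBEGF, BTC and ICAM1 passed the detection filter through FGF2 alone, and without them 12 were higher and 3 lower, with a median of 0.17. HBEGF, an EGF receptor ligand, and the syndecan SDC1 were called, with log2 fold changes of 1.47 (adjusted p = 0.00892) and 1.02 (adjusted p = 0.0387). HBEGF rose from 7.38 and 7.64, the former undetected, to 8.89 and 9.08, and neqc gave 2.75. Because only FGF2 took it through the detection filter, its p is no independent support; with no detection filter it was 0.0034. SDC1 rose from 9.74 and 9.75 to 10.89 and 10.64. The HBEGF call ended without the second FGF2 array (adjusted p = 0.105), and that of SDC1 when any of the 4 -GFs and FGF2 arrays was left out (up to 0.216), with median scaling (0.93) and with the mean of its detected probes (0.89).

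Of the matrix substrates and binding proteins 26 of 31 were tested, 12 higher and 14 lower (9 higher with median scaling), with a median of -0.04. Here THBS1, thrombospondin 1, was the only one called, from 7.68 and 7.79 to 9.30 and 9.29 (1.56, adjusted p = 0.00525), which held when any array was left out and was 2.6 with neqc. The next largest change was that of LAMC1, a laminin chain, 0.58, whose adjusted p of 0.0937 was between 0.117 and 0.403 when any array was left out.

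Of the AP-1 and ETS factors, a list that also holds EGR1 and the RUNX factors, 14 of 17 were tested, 13 higher and 1 lower, with a median of 0.99, and 7 were called higher. They are FOS, FOSL2, JUN, JUNB, ETV4, ETV5 and EGR1. The 1 lower was the AP-1 factor FOSB, at -0.48, with an adjusted p of 0.0217 with the replicate block. In that fit 10 genes of the list were past the adjusted p higher (18.1% of all genes) and 1 lower (19.6%). ETV4 passed the detection filter through FGF2 alone, so its p is no independent support (0.0102 with no detection filter), and without it 12 of 13 were higher, with a median of 0.75 and 6 called. The largest changes were those of EGR1, from 10.02 and 10.34 to 14.37 and 14.37 (4.19, adjusted p = 0.00459), and JUNB, from 9.12 and 10.07 to 11.46 and 11.89 (2.08, adjusted p = 0.0227). FOS rose from 7.71 and 7.65 to 8.73 and 9.84 (1.61), with an adjusted p of 0.092, and 0.127 with neqc, where the change was 2.69. Its call ended with neqc and also with no detection filter. The calls of EGR1 and ETV5 held when any array was left out, and neqc gave 3.22 for ETV5 against 1.98, and 2.80 against 1.65 for ETV4, which was undetected on the first -GFs array. Those of FOSL2 and ETV4 ended without the second FGF2 array (adjusted p = 0.149 and 0.155), that of FOSL2 also with the mean of its detected probes (0.66), that of JUNB without either FGF2 array (up to 0.187), and those of FOS and JUN when any of the 4 -GFs and FGF2 arrays was left out (up to 0.393 and 0.191). No list member was called with BMP4 in any of the 5 lists. Whether these factors acted on the promoters shown was not tested.

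**Figure D5:**
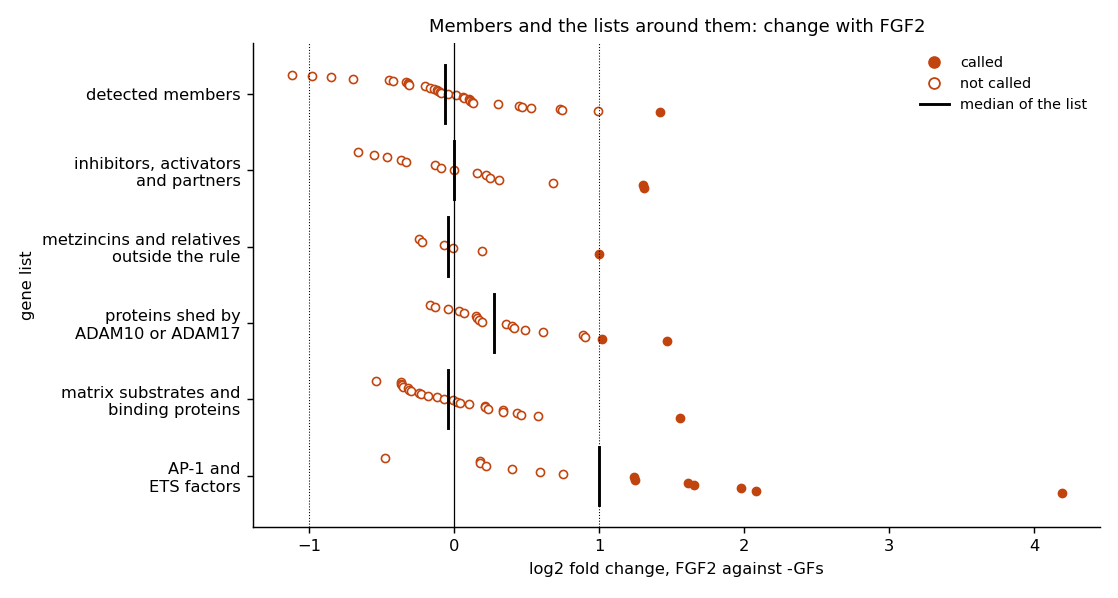
Log2 fold change with FGF2 (x axis) of each tested gene of the detected members and of the 5 lists (y axis). Filled circles are called, and vertical bars are medians; the median of the AP-1 and ETS factors is 0.99 and that of the members -0.06.

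The plot of lists sets the members beside these genes, with the called members of each list as filled circles. Over all genes, 64.7% of those called with FGF2 were higher, against 54.4% with neqc and 49.9% with median scaling.

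The cells carried stromal markers on the array, with 9 of 10 detected (all but KITL), among them PDGFRA, PDGFRB, THY1 and VIM, and CXCL12 with the highest mean signal. Of the markers of other cells that could be present, 3 of 8 adipocyte, 3 of 7 macrophage and leukocyte, 2 of 5 endothelial, 1 of 4 embryonic stem cell and 1 of 4 epithelial markers passed the detection filter. These were PPARG, LPL and CEBPA; CSF1R, LYZ2 and CD14; KDR and TEK; POU5F1; and CDH1, while ADIPOQ, PTPRC, PECAM1, NANOG and EPCAM, among others, did not pass, so the presence of such cells was not tested. None of the markers was called in either comparison with -GFs. Of the 9 stromal markers, 8 were lower with FGF2, with a median of -0.26 (-0.41 with median scaling). With the replicate block 3 of them were past the adjusted p lower and 1 higher, where 19.6% and 18.1% of all genes were. Of the 3 adipocyte markers tested, PPARG was higher with FGF2 (0.21) and LPL and CEBPA were lower (-0.27 and -0.35). LPL and CEBPA passed the detection filter through -GFs and BMP4 but not FGF2. CEBPA was undetected on both FGF2 arrays, so its fitted change is no bound. Its adjusted p in the limma fit with the block (0.063) is no independent support. Summed stromal marker intensity was 98400 and 90000 in -GFs, 78700 and 73300 with FGF2, and 101000 and 84100 with BMP4, and whether this difference has a part in the changes above was not tested. In bulk RNA, fewer cells with a transcript and less of it per cell cannot be told apart.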

How the data were processed

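Bead intensity values, not normalized, and detection p-values per probe were deposited by the authors from GenomeStudio 2011.01; 9 columns without a heading and 6 leftover lines were not used. Intensities were normalized by a re-implemented cubic spline (452 quantiles per array), and log2 values were fitted in R 4.3.3 with limma 3.58.1, with 3 groups and adjustment over all 11872 genes tested. The procedure was tested on simulated data without a replicate effect and with planted changes above the fold threshold, so smaller changes were not covered. Column headings were assigned to groups by their letters (C, F, B), which no deposited text spells out. Named with values on every array are members called or past the adjusted p and detected TIMP genes; also named are the 5 brightest members, those undetected in a group, and the largest and smallest change per family, and for each list the called genes and largest changes. The labels give each biological replicate 1 untreated, 1 FGF2 and 1 BMP4 well, and the differences between replicates correlated between groups at 0.602, 0.741 and 0.579, so a fit with a replicate block was an alternative; others were quantile normalization, neqc, median scaling, other filters and leaving out each array. Members and lists were chosen with earlier results of these data known. With 2 arrays per group precision is limited by the number of arrays, and p-values measure spread between these replicates. Python 3.11.15 read promoters and drew plots.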

Additional observations from a re-analysis of the deposited data

How the results depend on the processing

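Members called with FGF2 against -GFs were 1. The count was 3 with neqc, 2 with median scaling, 2 with the replicate block and 0 by the methods' t-test after Benjamini-Hochberg. Of all genes 6.69%, 3.51% and 3.95% were called with neqc, median scaling and the block. The count also moved when some arrays were left out, and so did the share of all genes called. Past the adjusted p were 6, against 3 with neqc, 14 with the replicate block and 0 by the methods' t-test after adjustment. Of all genes 9.38% passed with neqc and 37.7% with the block. In the fit with the block the adjusted p was 1.27e-04 for TIMP3, 0.00121 for MMP24 and 1.47e-04 for ADAMTSL4. Leaving out a -GFs or FGF2 array lowered both the number of members past the adjusted p and the share of all genes passing. With BMP4 0 were past the adjusted p, against 1 with the replicate block and 1 by the methods' t-test unadjusted; 0 were called under every setting. FGF2 against BMP4 gave 3 calls (2.03% of all genes were called higher and 1.04% lower). The calls were fewer when an FGF2 or BMP4 array was left out, where the share of all genes called was also lower. Alternatives chosen after seeing the data joined the block with other scalings: members called with FGF2 were 2 with quantile normalization, 6 with neqc and 3 with median scaling (3.95%, 9.63% and 3.96% of all genes), those past the adjusted p 14, 15 and 16 (37.7%, 32.1% and 37.5%), with BMP4 1 past the adjusted p with quantile normalization (0.194%), and FGF2 against BMP4 6 calls with neqc (8.31%). Median scaling, with or without the block, reversed the FGF2 changes of TIMP2 (-0.07), MMP14 (-0.08) and ADAM9 (-0.07) and the BMP4 change of TIMP1 (-0.10); the mean of detected probes reversed ADAMTSL3 (0.05) and TIMP1 with BMP4 (-0.01). Leaving out an array reversed MMP14 (-0.05 to 0.27), MMP9 (-0.08 to 0.01), ADAM9 (-0.43 to 0.46), ADAMTS2 (-0.33 to 0.05), ADAMTS9 (-0.36 to 0.57), ADAMTSL3 (-0.29 to 0.12), and with BMP4 TIMP1 (-0.08 to 0.09) and ADAMTSL1 (-0.08 to 0.95). MMP28 (-0.07 to 0.73) was negative only where another of its probes was chosen; the first probe gave 0.70 there. The cause was not tested.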

Other observations

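Of the 34 detected members, 21 differed between replicate 2 and replicate 1 with the same sign in all 3 groups (61.8%, against 53.3% of all genes tested), 9 lower and 12 higher in replicate 2. The mean difference was -0.71 for ADAM9, -0.70 for ADAMTSL1 and 0.75 for ADAMTS9. The cause was not tested.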
